A study of Homo sapiens with 6 samples.

Results

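The actin cytoskeleton and SRF-linked genes were 48 genes chosen by symbol from their known roles: the cytoplasmic actins, non-muscle myosin II, the proteins that bind, crosslink and anchor actin filaments, the machinery that assembles and turns filaments over, and the transcription factor SRF with its actin-regulated co-factors. The choice was made with earlier results of these data known. All 48 were found among the 23459 genes of the count table. They were measured by 3′ mRNA-Seq in MCF10A, a human mammary epithelial cell line that is not transformed. The descriptions mark all 6 libraries WT. All cells carried 20 nM siRNA, which was a non-targeting control in 3 libraries (siCtrl) and directed against YAP and TAZ in 3 libraries (siYAP/TAZ). No protein, stiffness or cell shape was measured in these libraries, and the time after transfection is not in the labels.

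Actin monomers polymerise into filaments, which myosin II contracts and which end at focal adhesions. Monomeric actin holds the MRTF co-factors away from SRF, and when monomers are used up MRTF enters the nucleus and drives SRF targets, many of which are actin, tropomyosin, calponin and focal adhesion genes. YAP and its paralogue TAZ (encoded by WWTR1) are TEAD co-activators that respond to the same cytoskeletal tension, and several genes are known to be reached by both routes.

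The 6 libraries held 3175149 to 4317286 counts, and levels are given as TMM-normalised CPM (each count as a share of its library's scaled total). A count of 0 allows up to 3 counts, or 0.695 to 0.945 CPM depending on the library, for counting error only. For 2 libraries, siCtrl replicate 2 and siYAP/TAZ replicate 2, the title and genotype entry name the opposite group to the description, which is also the column name and was used here. YAP1 was 189, 204 and 210 CPM in siCtrl replicates 1, 2 and 3 and 116, 118 and 112 CPM with siYAP/TAZ, and WWTR1 was 109, 109 and 102 CPM against 70.5, 67.1 and 59.8 CPM. Both targeted genes went with the descriptions. With edgeR, their adjusted p-values were 0.0138 and 0.0311. With 1 library left out these reached 0.112 and 0.176, and they stayed under 0.05 for YAP1 only when that library was siCtrl replicate 1 or 2 or replicate 1 of siYAP/TAZ, and for WWTR1 only when it was siCtrl replicate 2. SiCtrl replicate 2 stood apart for the genes reported here: it was the lowest siCtrl library for 29 of the 45 members tested (64.4%), against 39.7% of all genes tested. Values without it are given where a call or sign changed or a fold change moved by more than 1.5 times.

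Depletion of YAP and TAZ was accompanied by lower levels of part of this programme, led by β-actin (ACTB) and the filament crosslinkers α-actinin-1 (ACTN1), filamin A (FLNA) and LIMA1. Of the 48 members, 45 passed the low-count filter, and 39 of the 45 had a log2 fold change below 0 (86.7%, against 50.1% of the 12510 genes tested). The median log2 fold change of the 45 was -0.31, and that of all genes tested was -0.00093. Since the members were chosen with earlier results of these data known, these differences are not independent of the choice. All 48 together took 1.09%, 0.837% and 1.12% of the counts with siCtrl against 0.81%, 0.718% and 0.83% with siYAP/TAZ. The highest siYAP/TAZ library lay just under siCtrl replicate 2. In bulk RNA, fewer cells of a kind and less RNA per cell cannot be told apart.

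At an adjusted p under 0.05 (edgeR quasi-likelihood test, Benjamini-Hochberg adjustment over all genes tested), 4 of the 45 members were lower in siYAP/TAZ, where 1.22% of all genes tested were lower, and 0 were higher, where 0.743% were higher. At an unadjusted p under 0.05, 18 members were lower (9.27% of all genes) and 1, CALD1, was higher (8.4% of all genes). With the replicate number as a block, 12 members were lower (5.44% of all genes) and 0 higher (4.66%). The 8 added by the block were MYL12B, TPM3, TPM4, CNN2, CNN3, PFN1, TMSB4X and DIAPH3. With DESeq2, 10 of the 48 were lower (2.57% of all genes) and 0 higher (1.96%). Of these 10, 9 were among the 12 of the block and the other was TAGLN. TAGLN reached the level needed for an adjusted p in DESeq2 only through siCtrl, in which it is high, so its call is not counted as a result. Counted by separation of the libraries alone, 16 members had every siYAP/TAZ library under every siCtrl library (11.1% of all genes), and 1 member, CALD1, had every one above (11% of all genes).

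The count of calls depended on single libraries. Without siCtrl replicate 2, 12 of the same 45 members were lower (6.22% of all genes) and 0 higher (6.08%), among them the 4 of the fit with all libraries and 10 of the 12 of the block. TAGLN was lower too, but it passed the filter of that fit only through the siCtrl libraries in which it is high, so its call is not counted. LIMA1 alone passed once siCtrl replicate 1 was left out (0.49% of all genes lower), and CNN3 alone once replicate 2 of siYAP/TAZ was (0.273%). None passed in edgeR when siCtrl replicate 3 or replicate 1 or 3 of siYAP/TAZ was left out, where 0.0788%, 0.866% and 0.0869% of all genes were lower. These 3 fits had 9, 12 and 11 of the 45 members with an unadjusted p below 0.05 and a lower level (5.88%, 8.89% and 5.58% of all genes). Leaving out siCtrl replicate 2 made 9 of the 45 fold changes larger and 3 smaller by more than 1.5 times, and turned the sign of 3 near 0. The median of the members lay between -0.37 and -0.26 in these 6 fits.

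**Figure D1:**
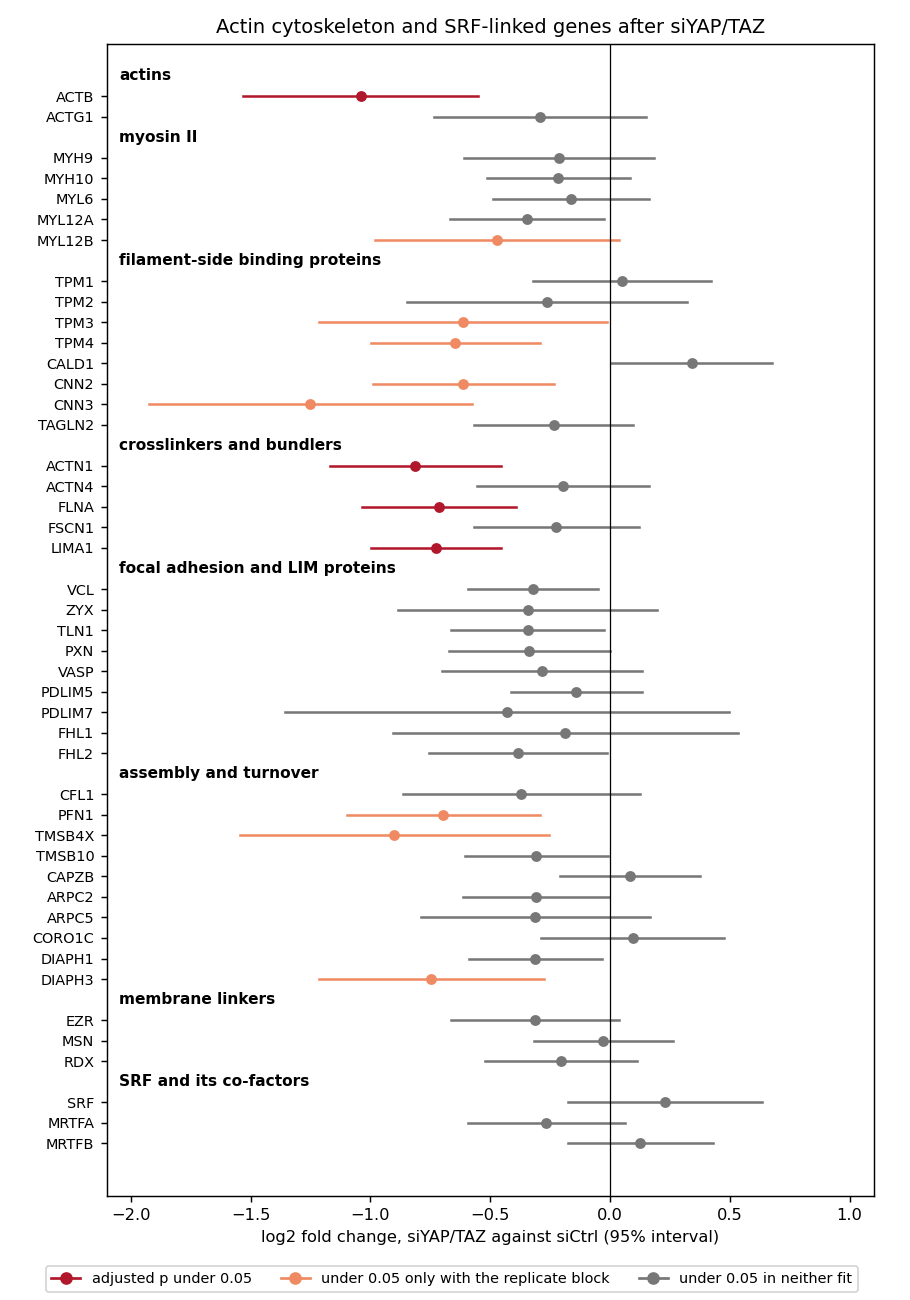
Log2 fold change of each of the 45 members tested (x axis, siYAP/TAZ against siCtrl, edgeR, with 95% intervals), grouped by role. The 4 dark red genes passed an adjusted p of 0.05, the 8 orange genes passed only with the replicate block, and 39 of the 45 points lie to the left of 0.

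**Figure D2:**
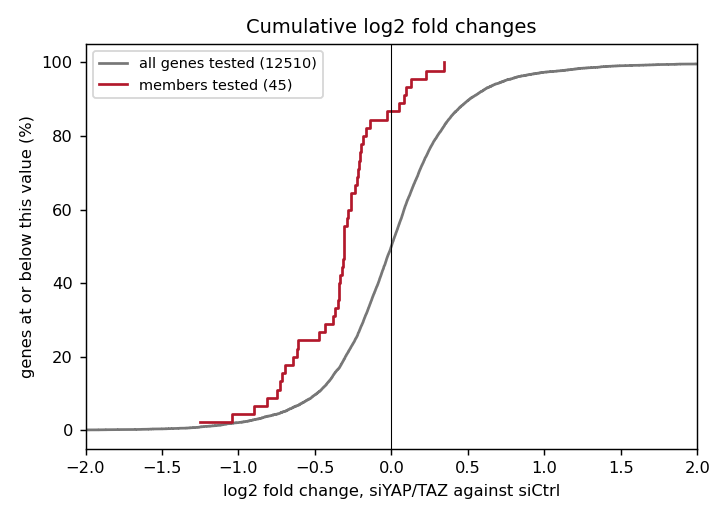
Cumulative share (y axis, %) of the 45 members tested and of all 12510 genes tested against log2 fold change (x axis). The curve of the members lies to the left, with 86.7% of the members below 0 against 50.1% of all genes. The members were chosen with earlier results of these data known.

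The promoters are shown because SRF binds the CArG box (CC, 6 bases of A or T, then GG). In RefSeq (GRCh38.p14), 89 promoters of 44 members were found, each running from 250 bases before to 50 bases after a transcription start. ACTB, FSCN1, TAGLN and MYL9 had no promoter in the set used, so they were not searched for any word. A CArG box stood in 10 of the 89 (11.2%), in 8 genes, and in 1.29% of all 35116 promoters. Since SRF targets were among the genes chosen, this difference is not independent of the choice. Listed promoters of a gene can also overlap, as in FHL2, where overlapping promoters hold the same box. The shares of promoters given here and below are thus not shares of separate windows. Among the 11 genes with a promoter that passed with or without the block, 4 held a CArG box (TPM4, CNN2, ACTN1 and FLNA), in 4 of their 22 promoters (18.2%). Their boxes are printed in capitals within windows of 60 bases, followed by those of ACTG1 and SRF. These 2 genes, like FHL1 and FHL2, hold a box and did not pass in either fit. ACTN1 also holds the TEAD word GGAATG on the opposite strand, which reads CATTCC and is in capitals too.
TPM4 promoter (GRCh38.p14, chr19:16067340-16067399, plus strand): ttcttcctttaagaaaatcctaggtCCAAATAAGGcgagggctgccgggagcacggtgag
CNN2 promoter (GRCh38.p14, chr19:1026494-1026553, plus strand): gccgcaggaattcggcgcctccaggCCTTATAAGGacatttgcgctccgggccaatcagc
ACTN1 promoter (GRCh38.p14, chr14:68977703-68977762, minus strand): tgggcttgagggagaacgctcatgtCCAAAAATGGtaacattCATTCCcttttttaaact
FLNA promoter (GRCh38.p14, chrX:154374694-154374753, minus strand): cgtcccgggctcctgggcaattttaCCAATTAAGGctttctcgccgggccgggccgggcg
ACTG1 promoter (GRCh38.p14, chr17:81512859-81512918, minus strand): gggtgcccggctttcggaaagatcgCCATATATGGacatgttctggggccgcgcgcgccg
SRF promoter (GRCh38.p14, chr6:43171209-43171268, plus strand): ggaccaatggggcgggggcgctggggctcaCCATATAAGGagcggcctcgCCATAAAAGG

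In these windows the box began 173 bases before the start site in TPM4, 89 in CNN2, 171 in ACTN1, 94 in FLNA and 94 in ACTG1, and SRF held 2 boxes, at 30 and 10 bases. These distances are to the start of the promoter shown, and TPM4, ACTN1 and SRF also have listed promoters without a box. The word GGAATG, on either strand, stood in 16.9% of member promoters, in 22.7% of those of the lower genes and in 14% of all promoters. The AP-1 word TGANTCA stood in 10.1% of member promoters, in 0 of the 22 promoters of the lower genes and in 7.71% of all promoters. None of the words overlapped in the windows shown. A match to letters in a window of this length is a description of sequence and not of binding.

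The cytoplasmic actins build the filaments themselves, and 1 of the 2 fell (1.22% of all genes in the fit with all libraries). ACTB (Entrez 60; GRCh37 chromosome 7, 5566040 to 5603533, minus strand), β-actin, was 643, 409 and 761 CPM with siCtrl against 315, 256 and 310 CPM with siYAP/TAZ. Every siYAP/TAZ library lay below every siCtrl library, and siCtrl replicate 2 was closest to them. The means were 604 ± 180 and 294 ± 32.4 CPM (SD, n = 3 each), or 48.6% of the control level, and the log2 fold change was -1.04 (SE 0.22, 95% interval -1.53 to -0.55, edgeR adjusted p = 0.0477). The adjusted p was 0.0015 with the replicate block, 0.00032 with DESeq2 and 0.00096 without siCtrl replicate 2. It rose to between 0.0905 and 0.200 when any other single library was left out, and was 0.0537 with scaling by library size alone.

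ACTG1 (Entrez 71), γ-actin, was 1199, 921 and 1350 CPM with siCtrl against 809, 870 and 1157 CPM with siYAP/TAZ. The groups overlapped, and the log2 fold change of -0.29 had a 95% interval of -0.73 to 0.15 (edgeR adjusted p = 0.482, and 0.156 with the block). Without siCtrl replicate 2 it was -0.43 (95% interval -0.82 to -0.04, adjusted p = 0.139). Up to 26 counts per library went to 4 ACTG1 pseudogene rows, 0.535% of the counts of the parent gene. Within each library, ACTB made up 34.9%, 30.7% and 36.1% of the counts of both genes with siCtrl against 28.0%, 22.7% and 21.1% in siYAP/TAZ. This share needs no scaling between libraries, and it was lower in all 3 siYAP/TAZ libraries. The difference of the log2 ratio was -0.71, and the exact two-sided permutation test gave p = 0.1, the smallest that 3 against 3 allows (0.317 adjusted over the 19 pairs compared).

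**Figure D3:**
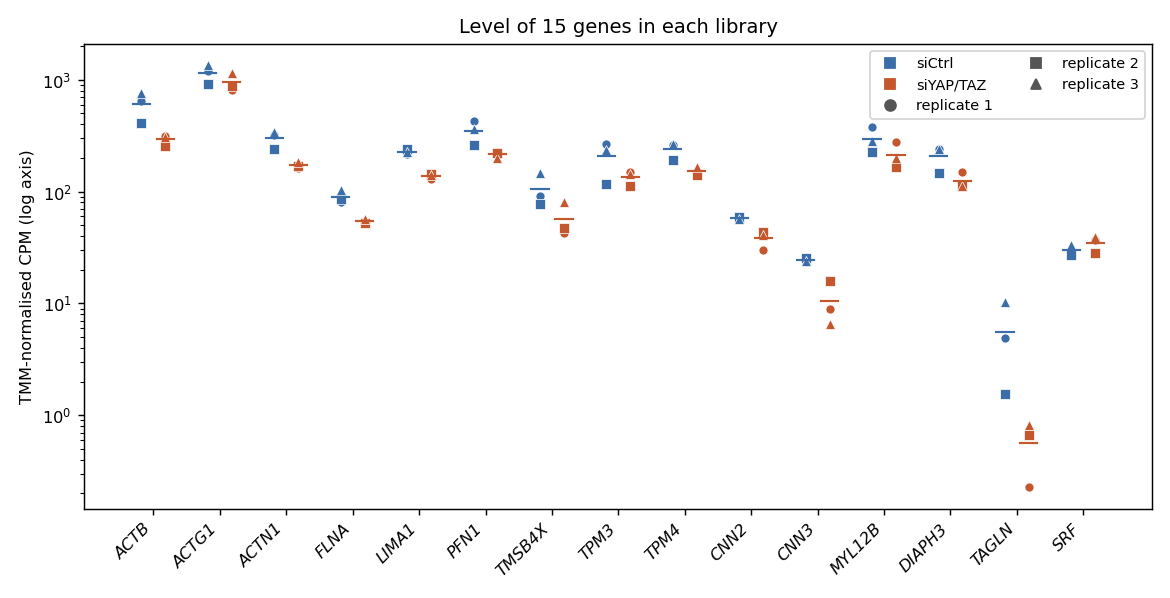
TMM-normalised CPM (y axis, log scale) of 15 members in each siCtrl (blue) and siYAP/TAZ (orange) library, with bars at the group means and the symbol giving the replicate number. ACTB, ACTN1, FLNA, LIMA1, PFN1, TPM4, CNN2, CNN3 and TAGLN separate completely, whereas ACTG1, TMSB4X, TPM3, MYL12B, DIAPH3 and SRF overlap.

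Among the crosslinkers and bundlers, which tie filaments into networks and bundles, 3 of 5 fell, in the fit with all libraries (1.22% of all genes) and with the block (5.44%) alike. The median log2 fold change of the 5 was -0.72. LIMA1 (Entrez 51474; chromosome 12, 50569571 to 50677303, minus strand), also called EPLIN, stabilises filament bundles. It was 216, 239 and 225 CPM with siCtrl against 128, 143 and 140 CPM with siYAP/TAZ, a narrow spread in both groups with no overlap. Its log2 fold change was -0.73 (SE 0.12, 95% interval -0.998 to -0.455, edgeR adjusted p = 0.0205), and 60.5% of the control level remained. Leaving out siCtrl replicate 1 (0.0492) or 2 (0.0063) kept it past the threshold. Leaving out siCtrl replicate 3 (0.117) or any library of siYAP/TAZ (0.0667, 0.0776 and 0.133 for replicates 1, 2 and 3) did not.

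ACTN1 (Entrez 87; chromosome 14, 69340845 to 69446157, minus strand), α-actinin-1, crosslinks antiparallel filaments in stress fibres and adhesions. It holds the CArG box shown above, though not in every promoter listed for it. ACTN1 was 323, 239 and 344 CPM with siCtrl against 162, 170 and 184 CPM with siYAP/TAZ, and its log2 fold change was -0.81 (SE 0.16, 95% interval -1.17 to -0.46, edgeR adjusted p = 0.0354). FLNA (Entrez 2316; chromosome X, 153576892 to 153603002, minus strand), filamin A, joins filaments at wide angles and links them to integrins. It was 79.8, 85.5 and 103 CPM with siCtrl against 53.9, 52.6 and 56.8 CPM with siYAP/TAZ, and its log2 fold change was -0.72 (SE 0.14, 95% interval -1.04 to -0.39, edgeR adjusted p = 0.0385). Neither gene overlapped between the groups, and 57.0% and 60.9% of the control level remained. Both passed without siCtrl replicate 2 (0.0017 for ACTN1 and 0.012 for FLNA). With any other library left out the adjusted p was 0.0974 to 0.180 for ACTN1 and 0.0662 to 0.199 for FLNA.

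The other members of this role were ACTN4, the paralogue of ACTN1, and FSCN1, which encodes the bundler fascin. ACTN4 was 300, 235 and 299 CPM with siCtrl against 273, 202 and 251 CPM with siYAP/TAZ, and the groups overlapped (log2 fold change -0.20, edgeR adjusted p = 0.565, and -0.30 without siCtrl replicate 2). ACTN1 took 51.9%, 50.4% and 53.4% of the counts of both genes with siCtrl against 37.2%, 45.7% and 42.3% in siYAP/TAZ, a lower share in every siYAP/TAZ library (difference of the log2 ratio -0.59, exact permutation p = 0.1). ACTN4 overlaps CAPN12 on the opposite strand, where 418 to 877 counts were listed, and without a stated strand setting reads of the pair cannot be told apart. FSCN1 had a log2 fold change of -0.22 (95% interval -0.57 to 0.12), and without siCtrl replicate 2 it was -0.35 (-0.63 to -0.07, adjusted p = 0.0964).

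Proteins that lie along the filament side set how stable a filament is and how myosin reaches it. Of the 8 tested, 0 passed in the fit with all libraries (1.22% of all genes lower) and 4 fell with the replicate block (5.44%). These 4 were the tropomyosins TPM3 and TPM4 and the calponins CNN2 and CNN3. TPM4 (Entrez 7171) was 260, 191 and 265 CPM with siCtrl against 151, 140 and 167 CPM with siYAP/TAZ. Its groups did not overlap, and its log2 fold change of -0.65 had an edgeR adjusted p of 0.0723, or 0.0071 with the block, 0.0043 without siCtrl replicate 2 and 0.0167 with DESeq2. TPM3 (Entrez 7170) was 268, 118 and 233 CPM with siCtrl against 150, 111 and 143 CPM with siYAP/TAZ. Here siCtrl replicate 2 lay among the siYAP/TAZ libraries, and the adjusted p of 0.274 became 0.0403 with the block and 0.0047 without that library. The log2 fold changes of TPM1 and TPM2 were 0.05 and -0.26, with 95% intervals of -0.32 to 0.42 and -0.85 to 0.32, and without siCtrl replicate 2 that of TPM1 was -0.02. Relative to TPM4, TPM1 took a higher share of the counts of both genes in all 3 siYAP/TAZ libraries, 17.7%, 20.5% and 19.7% against 12.9%, 14.1% and 11.9% (difference of the log2 ratio 0.68, exact permutation p = 0.1).

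CNN2 (Entrez 1265) and CNN3 (Entrez 1266), calponins that restrain actomyosin, were both lower in every siYAP/TAZ library. CNN2 was 57.7, 59.2 and 57.0 CPM with siCtrl against 29.9, 43.3 and 41.1 CPM with siYAP/TAZ (log2 fold change -0.61, edgeR adjusted p = 0.101, or 0.0274 with the block). CNN3 was 23.6, 25.6 and 24.1 CPM with siCtrl against 8.84, 15.9 and 6.53 CPM with siYAP/TAZ. The 3 siCtrl libraries agreed closely for each calponin, whereas the siYAP/TAZ libraries spread more, and CNN3 had the lowest log2 fold change of the members tested, -1.25 (SE 0.30, 95% interval -1.92 to -0.58). Its edgeR adjusted p was 0.0696, and it passed with the block (0.0101), with DESeq2 (0.0085) and when replicate 2 of either siCtrl (0.0314) or siYAP/TAZ (0.0448) was left out. CNN2 took a larger share of the counts of both genes, 77.2%, 73.2% and 86.3% in siYAP/TAZ against 71.0%, 69.8% and 70.3% in siCtrl (difference of the log2 ratio 0.69, exact permutation p = 0.1).

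CALD1 (Entrez 800) encodes caldesmon, which competes with myosin for the filament, and was the one member with every siYAP/TAZ library above every siCtrl library. It was 339, 420 and 388 CPM with siCtrl against 446, 452 and 555 CPM with siYAP/TAZ. The log2 fold change of 0.34 (95% interval 0.0055 to 0.68) did not pass (edgeR adjusted p = 0.276, or 0.0948 with the block). TAGLN2, a transgelin, had a log2 fold change of -0.24 (95% interval -0.57 to 0.09).

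The other 3 members, the smooth muscle genes TAGLN, CNN1 and MYL9, did not pass the low-count filter. TAGLN (Entrez 6876), transgelin or SM22α, had 17, 5 and 41 counts with siCtrl against 1, 2 and 3 counts with siYAP/TAZ. The summed counts were 63 and 6, so that siYAP/TAZ held 9.07% of the siCtrl level per total count (95% exact interval 3.21% to 20.9%, which covers counting error only and not the spread between libraries). Without the low-count filter its edgeR adjusted p was 0.0144, and with DESeq2 it was 0.0080. TAGLN overlaps PCSK7 on the opposite strand, where 44 to 93 counts were listed. MYL9 had 5, 1 and 7 counts against 1, 0 and 2, and CNN1 2, 0 and 1 against 0, 1 and 0, which is too few to compare.

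Non-muscle myosin II pulls on the filaments, through heavy chains (MYH9, MYH10), an essential light chain (MYL6) and regulatory light chains (MYL12A, MYL12B). All 5 genes tested had log2 fold changes below 0, between -0.47 and -0.16. MYL12B (Entrez 103910) fell with the replicate block. It was 376, 228 and 286 CPM with siCtrl against 276, 167 and 198 CPM with siYAP/TAZ. The groups overlapped, but each siYAP/TAZ library lay below the siCtrl library of the same number, and the adjusted p was 0.313 without the block and 0.0187 with it. MYL12A had a log2 fold change of -0.35 (95% interval -0.67 to -0.02, edgeR adjusted p = 0.253, or 0.062 with the block), and no siYAP/TAZ library reached the lowest siCtrl library. The heavy chain MYH9 was 222, 158 and 246 CPM against 171, 166 and 204 CPM, with overlap, and its log2 fold change of -0.21 had a 95% interval of -0.61 to 0.19. Without siCtrl replicate 2, MYH9 had -0.37 (-0.68 to -0.07, adjusted p = 0.102) and MYL6 moved from -0.16 to -0.29.

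The genes that assemble filaments and turn them over include the monomer-binding proteins profilin 1 (PFN1) and thymosin β4 (TMSB4X), the severing protein cofilin (CFL1), capping protein (CAPZB), Arp2/3 subunits (ARPC2, ARPC5) and the formins DIAPH1 and DIAPH3. Of 10 tested, 0 passed with all libraries (1.22% of all genes lower) and 3 fell with the replicate block (5.44%). PFN1 (Entrez 5216) was 427, 261 and 363 CPM with siCtrl against 227, 220 and 202 CPM with siYAP/TAZ. The groups did not overlap, and the log2 fold change was -0.70 (edgeR adjusted p = 0.0854, 0.0137 with the block, 0.0031 without siCtrl replicate 2). TMSB4X (Entrez 7114), which sequesters monomers, was 91.6, 78.1 and 148 CPM with siCtrl against 42.8, 47.6 and 80.0 CPM with siYAP/TAZ. Its groups overlapped through siCtrl replicate 2 and siYAP/TAZ replicate 3, and the log2 fold change was -0.90 (edgeR adjusted p = 0.150, 0.0019 with the block, 0.0258 without siCtrl replicate 2). The related TMSB10 had a log2 fold change of -0.31 (95% interval -0.61 to -0.0094).

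DIAPH3 (Entrez 81624), a formin that nucleates and elongates unbranched filaments, was 240, 146 and 239 CPM with siCtrl against 149, 112 and 112 CPM with siYAP/TAZ. The groups overlapped only between siCtrl replicate 2 and siYAP/TAZ replicate 1. Its log2 fold change was -0.75 (edgeR adjusted p = 0.105, 0.0095 with the block, 0.0036 without siCtrl replicate 2), and 11 to 56 counts were listed for DIAPH3-AS1 on the opposite strand. DIAPH1 had a log2 fold change of -0.31 (95% interval -0.59 to -0.04). CFL1 was 722, 450 and 808 CPM against 598, 446 and 486 CPM, with siCtrl replicate 2 among the siYAP/TAZ libraries, and it passed only when that library was left out (adjusted p = 0.416 with all libraries and 0.0332 without it). The log2 fold changes of ARPC2, ARPC5, CAPZB and CORO1C were -0.31, -0.31, 0.08 and 0.09. Without siCtrl replicate 2 those of ARPC5, CAPZB, CORO1C and CFL1 were -0.50 (adjusted p = 0.0651), 0.02, -0.03 and -0.58. CAPZB overlaps MICOS10 on the opposite strand, where 1120 to 1543 counts were listed.

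Focal adhesions join the filaments to integrins through talin (TLN1) and vinculin (VCL), with paxillin (PXN), zyxin (ZYX) and VASP as plaque proteins. All 9 genes of this role had log2 fold changes below 0, between -0.43 and -0.14 with a median of -0.34. In edgeR 0 of 9 passed with or without the block (5.44% and 1.22% of all genes lower). VCL was 168, 174 and 175 CPM with siCtrl against 139, 127 and 148 CPM with siYAP/TAZ, and TLN1 was 58.0, 66.3 and 71.9 against 52.8, 48.3 and 53.6 CPM. Neither overlapped, with adjusted p-values of 0.213 and 0.254. PXN was 173, 127 and 169 CPM against 133, 116 and 122 CPM and passed only without siCtrl replicate 2 (adjusted p = 0.283 with all libraries and 0.0348 without it). PXN-AS1, on the opposite strand of PXN, had 280 to 551 counts. ZYX was 33.6, 45.4 and 32.4 CPM against 20.6, 38.0 and 29.6 CPM, with overlap. The interval of PDLIM7, a LIM protein at 6.28 to 19.0 CPM, ran from -1.36 to 0.49 and was the only one of the uncalled members to reach 2-fold. Without siCtrl replicate 2, the log2 fold change of PDLIM7 moved from -0.43 to -0.75, that of FHL1 from -0.19 to -0.32 and that of ZYX from -0.34 to -0.18, with adjusted p-values of 0.165, 0.585 and 0.670.

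The membrane linkers EZR, MSN and RDX, which tie the cortex to the plasma membrane, had log2 fold changes of -0.31, -0.03 and -0.20 and did not pass in either fit, and without siCtrl replicate 2 those of MSN and RDX were 8.0e-05 and -0.10. RDX overlaps ZC3H12C on the opposite strand, where 600 to 1294 counts were listed. SRF and its co-factors were measured beside their targets. SRF (Entrez 6722) was 29.0, 27.2 and 33.2 CPM with siCtrl against 36.9, 28.4 and 39.2 CPM with siYAP/TAZ. The groups overlapped, and the log2 fold change of 0.23 had a 95% interval of -0.18 to 0.63 (edgeR adjusted p = 0.554). These values are for SRF RNA, and the activity of SRF was not measured. MRTFA was 58.0, 72.2 and 74.1 CPM with siCtrl against 56.0, 59.5 and 54.7 CPM with siYAP/TAZ (log2 fold change -0.27, adjusted p = 0.375), and MRTFB was 81.9, 97.5 and 77.4 against 91.1, 96.2 and 92.7 CPM (0.13, adjusted p = 0.678, and 0.23 without siCtrl replicate 2). Both overlapped between the groups. The share of MRTFA in the counts of the pair did not overlap, at 41.5%, 42.5% and 48.9% in siCtrl and 38.1%, 38.2% and 37.1% in siYAP/TAZ (difference of the log2 ratio -0.39, exact permutation p = 0.1). SGSM3 overlaps MRTFA on the opposite strand, with 18 to 54 counts.

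**Figure D4:**
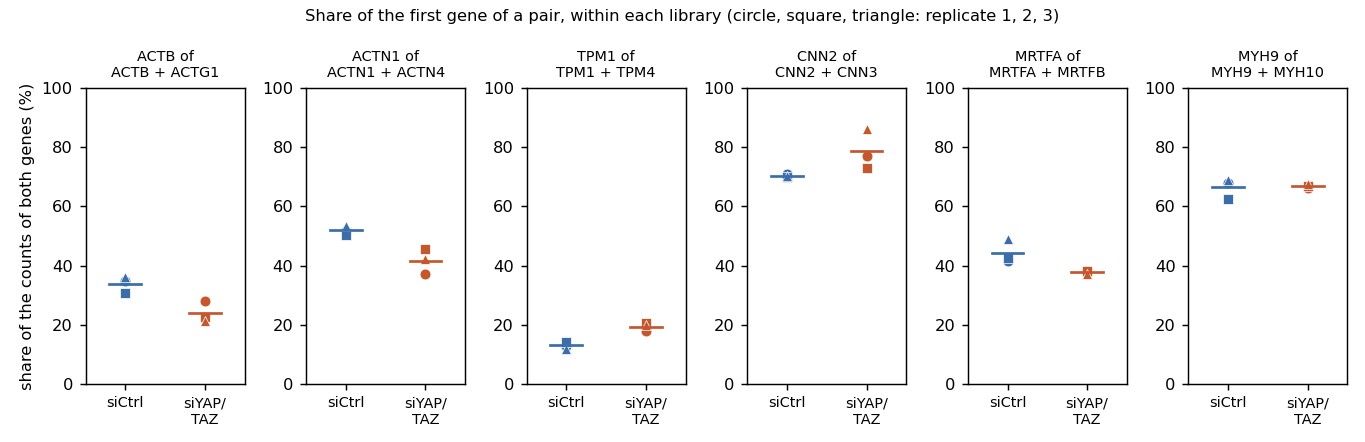
Share of the first gene in the counts of 2 related members (y axis, %) in each siCtrl (blue) and siYAP/TAZ (orange) library, with bars at the group means. The share of ACTB, ACTN1 and MRTFA is lower and that of TPM1 and CNN2 higher in all 3 siYAP/TAZ libraries, whereas that of MYH9 overlaps. Only some of the 19 pairs compared are shown, and most of the 19 overlapped.

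Of the 19 pairs of related members compared in this way, 4 had a share that was lower in every siYAP/TAZ library and 2 a share that was higher. For single genes, 11.1% of all genes tested were lower in every siYAP/TAZ library and 11% were higher. The same share over pairs of other genes was not computed, and several of the 19 pairs have a gene in common. The fourth lower pair was TAGLN with TAGLN2, which rests on the few TAGLN counts given above. No pair could pass the adjusted threshold in a design of 3 against 3. The 33 members that passed neither with nor without the block had log2 fold changes between -0.43 and 0.34, with 27 of them below 0. The 95% intervals of 32 of these stayed inside a 2-fold change in either direction, and the median distance from the fold change to either end was 0.34 on the log2 scale.

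Other genes of the pathway were counted in 3 lists of 102 genes in all, of which 92 were tested. These lists too were chosen with earlier results of these data known. In edgeR, 5 of the 92 fell (1.22% of all genes) and 0 rose (0.743%), with 20 lower (9.27%) and 4 higher (8.4%) at an unadjusted p under 0.05. With DESeq2, 8 fell (2.57%) and 0 rose (1.96%). Their median log2 fold change was -0.14. Among the actin assembly genes, RND3, a small GTPase that loosens stress fibres, fell (log2 fold change -1.39, adjusted p = 0.014). In the focal adhesion list 1 of 25 fell, AJUBA, a LIM protein that binds LATS kinases (-1.13, 0.0138). Among other SRF-linked targets 2 of 13 fell, CCN1 (-2.41, 0.0138) and CCN2 (-3.35, 0.0225), matricellular proteins that are also classical YAP targets. With the replicate block 10 of the 92 fell (5.44% of all genes) and 2 rose (4.66%), and these 2, TNS1 and SVIL, are named after their values were seen. Leaving out siCtrl replicate 1, 2 or 3 gave 3, 11 and 1 lower genes (0.49%, 6.22% and 0.0788% of all genes), and leaving out replicate 1, 2 or 3 of siYAP/TAZ gave 4, 2 and 0 (0.866%, 0.273% and 0.0869%).

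Markers of cell identity were read beside these counts. All 11 mammary epithelial markers were tested, and their summed level was 3320 to 3928 CPM with siCtrl against 2364 to 2642 CPM with siYAP/TAZ. Most of the sum was KRT6A (mean 1185 against 714 CPM) and KRT5 (912 against 661 CPM). Of the 11, 8 had a log2 fold change below 0, whereas those of TP63, CDH1 and KRT8 were 0.58, 0.25 and 0.13. In edgeR 0 were called (1.22% of all genes lower and 0.743% higher). With the replicate block 4 were lower (5.44% of all genes) and 1, TP63, was higher (4.66%). The 7 fibroblast markers summed to 163 to 181 CPM with siCtrl against 218 to 229 CPM with siYAP/TAZ. COL1A2 and COL3A1 were at 0 in every library, and DCN, which encodes the proteoglycan decorin, was 19, 24 and 22 counts with siCtrl against 314, 103 and 210 counts with siYAP/TAZ. DCN rose (log2 fold change 3.15, edgeR adjusted p = 0.0032), while PDGFRA, which holds most of the sum, had 161 ± 8.46 and 167 ± 14.5 CPM (SD, n = 3 each). The smooth muscle markers summed to 41.1 to 60.8 CPM and 42.2 to 51.7 CPM, with DES at 0 to 2 counts. The endothelial and immune markers stayed at or below 11.2 and 4.94 CPM in sum, and PECAM1 had 4 to 6 counts with siCtrl against 14 to 29 counts with siYAP/TAZ. PECAM1 passed the low-count filter only through the siYAP/TAZ libraries, in which it is high, so its call with the replicate block is not counted. The part of these differences in the results above was not tested.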

How the data were processed

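Transcript levels were measured by 3′ mRNA-Seq (QuantSeq FWD) in 3 siCtrl and 3 siYAP/TAZ libraries of MCF10A cells. The authors deposited raw counts per Entrez gene, with no normalisation, and the submitters' processing notes name cutadapt 4.2, Bowtie2 2.3.5.1 and hg19. The gene annotation and the strand setting are not given in the sources used here. There were 23459 genes in the table, with 0 rows lacking an identifier and 0 columns left out. Symbols and promoters came from RefSeq (GRCh38.p14), with 23308 IDs and 99.7% of the counts matched, and coordinates came from GENCODE lifted to GRCh37 (the coordinates of hg19).

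All 6 libraries entered 1 quasi-likelihood fit in edgeR 4.0.16 under R 4.3.3. It had 1 term, the group, after filterByExpr and TMM scaling, and p-values were adjusted by Benjamini-Hochberg over the 12510 genes tested. Groups and replicate numbers follow the description field. The fit was tested on simulated data. Errors are SD over 3 libraries. The labels do not say that libraries came from separate cultures, so p-values measure only the spread between these samples. No 2 libraries were identical, and chi-square per degree of freedom was 4.39 to 13.6 within groups. Ratios of 2 members had 0.5 added to each count and were compared with exact two-sided permutation tests.

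For replicates 1, 2 and 3, deviations from the group means in siCtrl and in siYAP/TAZ had r of 0.42, 0.35 and 0.13 across genes, which are not independent replicates. Pairs of unlike number had r of -0.36 to 0.05. Each r of like number exceeded 0.1, so the numbers, which come from the description field, were taken to pair the libraries. A blocked value stands beside each result whose call it changes. The titles number the libraries otherwise: siCtrl replicate 3 and siYAP/TAZ replicate 1 are both titled replicate 2 of their group. The pairing was thus inferred from these same data, and every call that needs the block rests on it.

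The members and lists were chosen with earlier results of these data known. Every member that passed with or without the block is given in every library, as are ACTB, ACTG1, SRF, MRTFA and MRTFB and pairs whose shares did not overlap. Other members are given by values, counts or ranges, and pathway genes where they passed, except for items that are not reported here. Alternatives were the replicate block, robust dispersion, DESeq2 1.42.0, scaling by RLE or by library size alone, dropping the filter or asking for a mean of 50 counts or more, the groups of the titles, leaving out each library and leaving out both libraries whose labels disagree. A count of 0 allows up to 3 counts, and intervals and floors cover counting error only.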

Additional observations from a re-analysis of the deposited data

How the results depend on the processing

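The median log2 fold change of the members moved by less than the spread between libraries under every alternative (-0.37 to -0.23), and 0 members were higher in each. The counts at an adjusted p under 0.05 moved more. Members lower were 10 with DESeq2, 9 without the low-count filter, 12 with the replicate block, 0 with the groups of the titles (3 at an unadjusted p under 0.05) and 11 without both libraries whose labels disagree, and 0 to 13 with 1 library left out. The 10, the 9, the 11 and the 13 include TAGLN, which is high only in siCtrl. For all genes lower and higher, the counts were 333 and 254 with DESeq2, 299 and 257 without the filter, 680 and 583 with the replicate block, 0 and 0 with the titles (242 and 222 unadjusted), 591 and 592 without both libraries, and 10 to 798 and 6 to 781 with 1 left out. Other pathway genes lower were 8 with DESeq2, 10 with the replicate block (2 higher), 0 with the titles (2 unadjusted), 8 without both libraries (2 higher) and 0 to 11 with 1 left out (0 to 4 higher). Scaling by library size alone or a mean of at least 50 counts left 3 members lower, without ACTB. The cause of these moves was not tested.

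Some differences in log2 ratio between related members, all with overlapping groups, changed sign. With 1 library left out they ran from -0.10 (without siCtrl replicate 2) to 0.10 for MYH9 with MYH10, from -0.12 (without the same library) to 0.25 for TPM3 with TPM4, from -0.79 to 0.33 for CNN1 with CNN2, from -0.52 to 0.0073 for FHL2 with FHL1, from -0.25 to 0.16 for ARPC2 with ARPC5 and from -0.097 to 0.73 for PDLIM5 with PDLIM7. With the titles they were -0.16 for MYH9 with MYH10 and for TPM3 with TPM4 and 0.0086 for RDX with MSN, and without both libraries whose labels disagree they were -0.10 and -0.050 for the first 2 pairs. The signs also differed at 0.040 and 0.14 for CNN1 with CNN2, 0.10 and 0.11 for ARPC2 with ARPC5 and -0.047 for PDLIM5 with PDLIM7. The replicate block changed no call of a member, a listed pathway gene or a marker other than those given in the report. At 3175149 to 4317286 counts a library, TAGLN, MYL9 and CNN1 were too shallow for the filter.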
